A study of Oryza sativa with 6 samples.

Results

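The genes described here are 10 rice loci selected as basic leucine zipper (bZIP) transcription factors, led by OsbZIP46 (LOC_Os06g10880). They were taken by locus name from 55777 loci named in the expression tables, and each was found in exactly 1 of the 63985 entries, an entry being 1 assembled transcript locus. Roots of 4-week-old japonica seedlings of the cultivar Chilbo were compared between plants watered throughout (control) and plants from which water was withheld for 2 d (WD2d) or 3 d (WD3d), with 2 libraries per group. No group carried a transgene, a mutation or an added agent. The labels do not give the day on which control roots were taken, and 1 control serves both times. Sampling day and water deficiency therefore cannot be told apart in the ratios to control. The values are FPKM, fragments per kilobase of transcript scaled to the mapped fragments of a library, and the tables give 1 pooled FPKM per group. The spread between libraries and the read depth are not given with them. The test columns that the tables also hold are the authors' own comparisons and were not used, so no test is reported here and whether a difference exceeds the error between replicates was not assessed.

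The bZIP proteins bind DNA as pairs through a basic region and hold each other through a leucine zipper, and many recognise sites with an ACGT core. In plants they act in responses to abscisic acid (ABA), in light signalling, seed storage, defence and sugar sensing. OsbZIP46 belongs to the ABA-responsive group, whose members are activated by SnRK2 protein kinases when ABA accumulates in drying tissue, and it is known as a positive regulator of drought tolerance in rice. For 2 members, LOC_Os05g03860 and LOC_Os02g03960, the rice annotation (RGAP) gives the description of a transcript with a conserved peptide upstream open reading frame (uORF). In Arabidopsis a group of bZIP messages carries such a uORF, through which sucrose represses their translation. LOC_Os01g06640 is described by the same annotation as a basic helix-loop-helix (bHLH) protein, which goes against its place among bZIP genes. It is treated below as a member by the selection only. The sources used here give no description of the other 6 loci, so no role is assigned to them.

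Of the 10 loci, 7 were over 1 FPKM in at least 1 group. The other 3 were under it in every group. LOC_Os02g10860 was at 0.793 FPKM in control, 0.301 FPKM in WD2d and 0.195 FPKM in WD3d. LOC_Os03g03550 was at 0.0746, 0.0768 and 0.0326 FPKM in control, WD2d and WD3d, and LOC_Os06g15480 at 0.0214, 0.0203 and 0.0286 FPKM in the same order. These 3 were under the limit of 1 FPKM chosen here and, with the read depth unknown, are not compared further.

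OsbZIP46 was the member with the largest upward difference. Its entry spans positions 5676002 to 5682126 of chromosome 6, as listed in the tables on the IRGSP 1.0 genome, which is the build of all positions given here. Control roots had 2.79 FPKM, with 52.2 FPKM in WD2d and 47.1 FPKM in WD3d. The level was thus low in watered roots and high at both times of water deficiency. The log2 ratio to control was 4.22 in WD2d, an 18.7-fold difference, and 4.07 in WD3d, a 16.8-fold difference. Among the 22942 entries over 1 FPKM in control or WD2d, 606 had a higher ratio (2.64%), and among the 23170 in control or WD3d, 703 had (3.03%). By level, it stood above 23.2% of the entries over 1 FPKM in control, 90.7% in WD2d and 88.2% in WD3d. Between the 2 times it differed little, with a log2 ratio of WD3d to WD2d of -0.15.

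**Figure D1:**
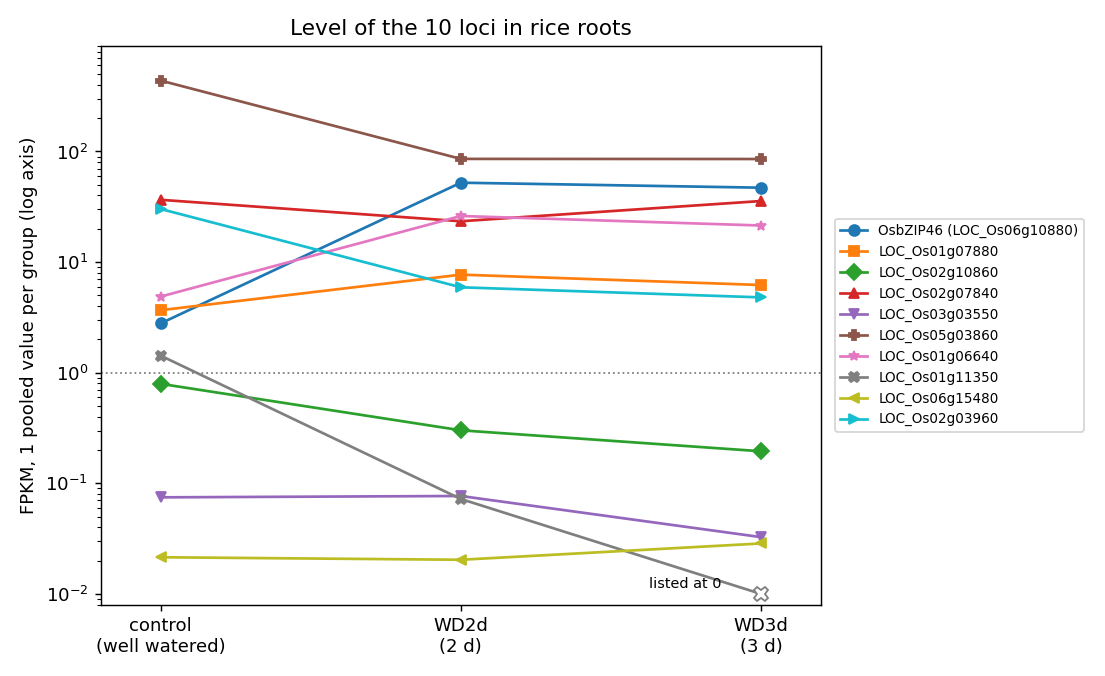
FPKM of the 10 loci (log axis) in control, WD2d and WD3d roots; each point is the 1 pooled value of a group, lines join the values of a locus, and the dotted line marks 1 FPKM. OsbZIP46 was at 2.79 FPKM in control and 47.1 FPKM in WD3d, while LOC_Os05g03860 was at 437 FPKM in control and 85.5 FPKM in WD3d; the open marker shows LOC_Os01g11350, listed at 0 in WD3d.

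LOC_Os01g06640, the locus described as bHLH, was the other member with a several-fold higher level at both times. Its entry spans positions 3127715 to 3131131 of chromosome 1. Control roots had 4.88 FPKM, with 26.1 FPKM in WD2d and 21.4 FPKM in WD3d. The log2 ratio was 2.42 in WD2d and 2.13 in WD3d, 5.35-fold and 4.39-fold. As with OsbZIP46, the higher of the 2 values under water deficiency was that of WD2d.

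The member most abundant in watered roots was lower under water deficiency. The entry of LOC_Os05g03860 (chromosome 5, positions 1717707 to 1719158) stood at 437 FPKM in control, 85.7 FPKM in WD2d and 85.5 FPKM in WD3d. In control it exceeded 99.6% of the entries over 1 FPKM, and it remained the highest of the 10 loci in all 3 groups. Its log2 ratio was -2.35 in WD2d and -2.36 in WD3d, so that control was 5.11-fold and 5.12-fold higher.

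LOC_Os02g03960, the second locus with the uORF description, has its entry at positions 1695454 to 1697219 of chromosome 2. It was at 30.2 FPKM in control, 5.91 FPKM in WD2d and 4.795 FPKM in WD3d. The log2 ratio was -2.35 in WD2d and -2.65 in WD3d. The 2 loci with this description therefore had the same ratio to 2 decimals after 2 d at levels 14.5-fold apart, and LOC_Os02g03960 had the lower ratio of the pair after 3 d. Whether the ratios of these loci differ could not be tested.

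LOC_Os01g11350 (chromosome 1, positions 6093722 to 6096528) was low throughout. It was at 1.42 FPKM in control and 0.0721 FPKM in WD2d and is listed at 0 in WD3d, for which no ratio is given. Its log2 ratio in WD2d, -4.30, was the lowest of the members over 1 FPKM, but it rests on values near or under 1 FPKM. With 1 added to each FPKM it was -1.18.

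LOC_Os02g07840 and LOC_Os01g07880 stayed near the 2-fold limit or within it. LOC_Os02g07840 (chromosome 2, positions 4109727 to 4112884) reached 36.6 FPKM in control, 23.4 FPKM in WD2d and 35.6 FPKM in WD3d. Its log2 ratio was -0.64 in WD2d and -0.04 in WD3d, so the WD3d value was close to that of control, with 1.52 times the level of WD2d. This was the only member over 1 FPKM that was higher in WD3d than in WD2d. LOC_Os01g07880, on chromosome 1, was at 3.67 FPKM in control, 7.70 FPKM in WD2d and 6.20 FPKM in WD3d. Its log2 ratio of 1.07 in WD2d was just past the limit of 1, and that of 0.76 in WD3d was inside it. Its listed coordinates, 3804058 to 3812069, are those of 2 further entries too, both naming LOC_Os01g07870. One of these was at 10.05 FPKM in control, 13.0 FPKM in WD2d and 16.5 FPKM in WD3d, and the other at 0.894, 3.53 and 2.65 FPKM in the same order. Whether reads were counted by strand is not given in the sources used here, so reads of LOC_Os01g07880 and LOC_Os01g07870 may not have been told apart. The low locus LOC_Os03g03550 shares its coordinates with an entry of LOC_Os03g03560 in the same way.

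Set against all entries, the members' ratios were spread widely in both directions. An entry was counted as past the limit when its FPKM ratio was at least 2-fold and 1 of the 2 groups was over 1 FPKM, with a value listed at 0 counted in its direction. In WD2d, 3 of the 7 members over 1 FPKM were up and 3 were down, where 15.4% of all such entries were up and 25.5% down. In WD3d, 2 were up and 3 were down, against 20.2% and 30.1% of all entries. The median log2 ratio of the 7 members was -0.64 in WD2d and -0.04 in WD3d, beside -0.03 and -0.05 over all entries. With so large a share of entries past 2-fold, the number of members past it is no sign by itself that these genes responded more often than others. Without LOC_Os01g06640, 2 members were up in WD2d and 1 in WD3d. The comparisons of WD2d and WD3d use the same control value of each entry.

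**Figure D2:**
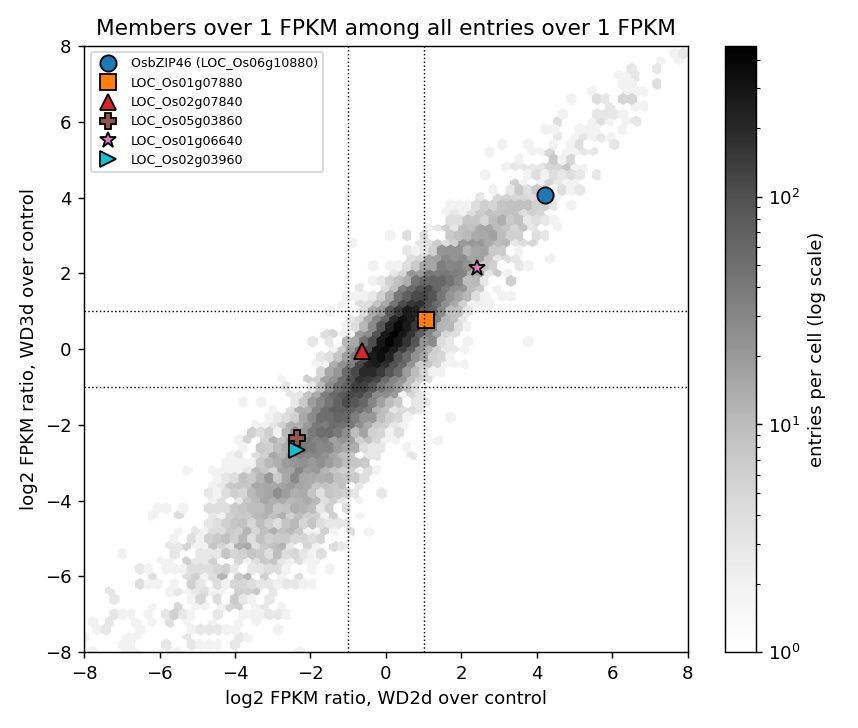
Log2 FPKM ratio to control in WD2d (horizontal) and WD3d (vertical) of entries over 1 FPKM (grey, darker cells hold more entries, log scale) and of 6 members over 1 FPKM (coloured points); dotted lines mark 2-fold, and both axes share the control value. Entries without a finite ratio at both times, or beyond the axes, are not drawn. OsbZIP46 lies at 4.22 and 4.07, and LOC_Os05g03860 and LOC_Os02g03960 lie together at -2.35 in WD2d.

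From 2 d to 3 d of water deficiency the members over 1 FPKM, like most such entries, stayed within 2-fold. Of the 6 members over 1 FPKM in either group, 0 were past 2-fold upward and 0 downward, where 4.88% of all entries were up and 10.2% down. With shares this low over all entries, these counts are no sign that the members differed less than other genes. Their log2 ratios of WD3d to WD2d ran between -0.31 in LOC_Os01g07880 and 0.61 in LOC_Os02g07840. OsbZIP46, LOC_Os01g06640, LOC_Os05g03860 and LOC_Os02g03960 thus had most of their difference from control already after 2 d.

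The order of the levels was therefore another one in dry roots. FPKM is a level per length of transcript, so levels can be set side by side between loci. In control the order was LOC_Os05g03860, LOC_Os02g07840, LOC_Os02g03960, LOC_Os01g06640, LOC_Os01g07880, OsbZIP46 and LOC_Os01g11350, with OsbZIP46 in place 6 of 10. In WD2d and WD3d OsbZIP46 was in place 2. LOC_Os05g03860 was 157-fold higher than OsbZIP46 in control, 1.64-fold higher in WD2d and 1.82-fold higher in WD3d. LOC_Os02g03960 was 10.8-fold higher than OsbZIP46 in control, whereas OsbZIP46 was 8.83-fold higher than LOC_Os02g03960 in WD2d and 9.81-fold higher in WD3d. Which neighbours in this order differ beyond replicate spread is not known.

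Summed over the 10 loci, the level was 518 FPKM in control, 201 FPKM in WD2d and 201 FPKM in WD3d. LOC_Os05g03860 accounted for 84.5% of the sum in control, 42.5% in WD2d and 42.6% in WD3d. OsbZIP46 accounted for 0.539% in control, 25.9% in WD2d and 23.4% in WD3d. Without LOC_Os05g03860 the sum ran the other way, at 80.4 FPKM in control, 116 FPKM in WD2d and 115 FPKM in WD3d. OsbZIP46 alone was 49.4 FPKM higher in WD2d and 44.3 FPKM higher in WD3d than in control. That is more than the whole rise of this remainder, so the loci left without both were together lower in dry roots. The lower total of the set thus rested mostly on LOC_Os05g03860, and the higher remainder on OsbZIP46.

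**Figure D3:**
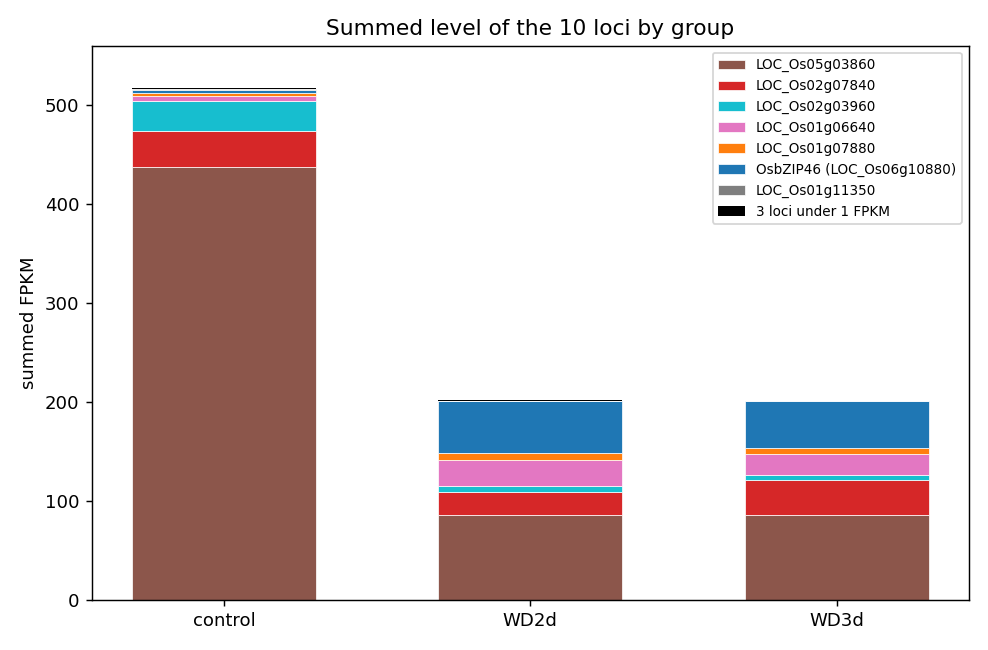
Summed FPKM of the 10 loci in control, WD2d and WD3d roots, stacked by locus, from 1 pooled value per group. The sum was 518 FPKM in control and 201 FPKM in WD3d, and OsbZIP46 held 0.539% of it in control and 23.4% in WD3d.

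The entries beside each locus showed whether a difference was shared with the neighbourhood. Within 25 kb of OsbZIP46, 3 entries were over 1 FPKM in control or WD3d. LOC_Os06g10890 was higher under water deficiency too, at 10.5 FPKM in control, 23.4 FPKM in WD2d and 22.9 FPKM in WD3d, a log2 ratio of 1.13 in WD3d. On the other side, LOC_Os06g10860 was at 5.27 FPKM in control and is listed at 0 in WD2d and WD3d, and an entry of LOC_Os06g10850 was at 3.05 FPKM in control, 0.0411 FPKM in WD2d and 0 in WD3d. The large difference of OsbZIP46 thus lay between neighbours that were lower on one side and about 2-fold higher on the other. Beside LOC_Os01g06640, by contrast, 3 of the 5 neighbours over 1 FPKM were up in WD3d and 0 were down. One of them, LOC_Os01g06660, was at 9.83 FPKM in control, 90.7 FPKM in WD2d and 102 FPKM in WD3d. LOC_Os01g06620 and LOC_Os01g06630 are listed at 0 in control and were at 95.5 and 23.6 FPKM in WD3d. Both lie at the same listed distance from LOC_Os01g06640, -2390 bp, so their reads may not have been told apart. Near LOC_Os05g03860, 1 of 6 neighbours was up in WD3d and 1 was down, and near LOC_Os02g03960, 0 of 4 were up and 1 was down. Over all 10 loci, 8 of 49 neighbours over 1 FPKM were up in WD2d and 14 were down, where 15.4% of all entries were up and 25.5% down. In WD3d, 11 of 51 were up and 17 were down, beside 20.2% and 30.1% of all entries. The shares among the neighbours were thus near those of all entries.

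**Figure D4:**
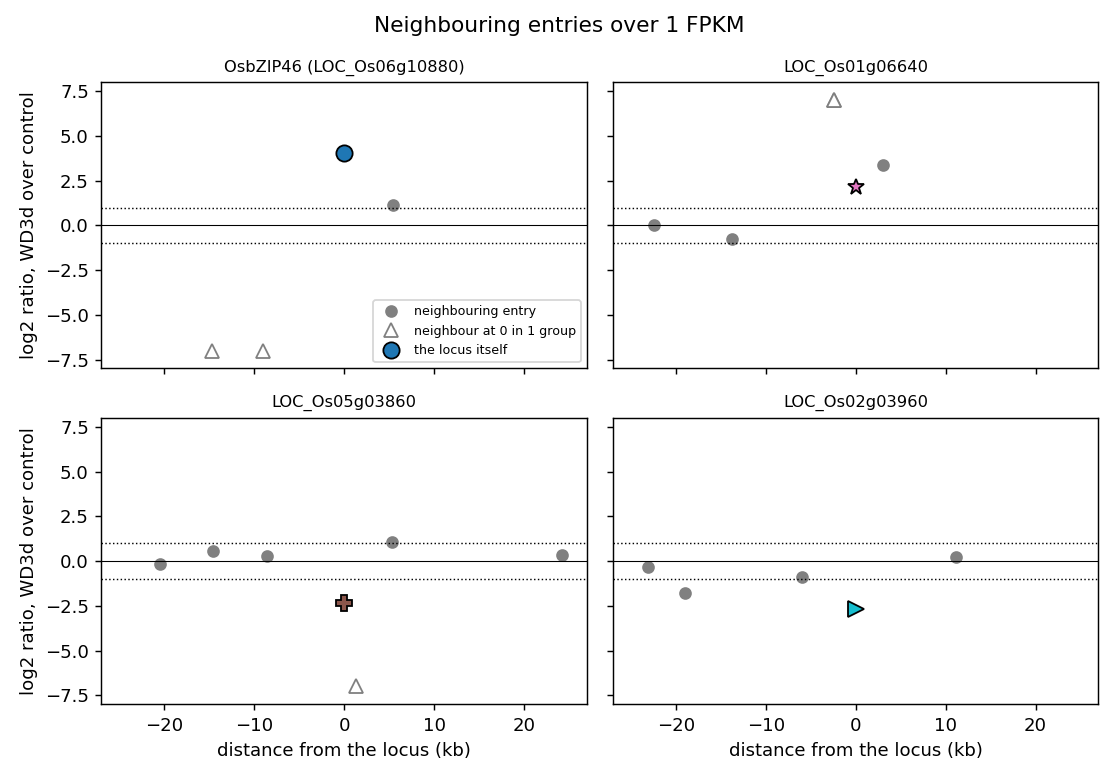
Log2 FPKM ratio of WD3d to control for 4 loci (coloured) and for entries over 1 FPKM within 25 kb of them (grey; open triangles are listed at 0 in 1 group and drawn near the edge without a ratio, 2 of them on top of each other beside LOC_Os01g06640), by distance from the locus in kb. OsbZIP46, at 4.07, stands above its neighbours, and LOC_Os01g06640, at 2.13, has 3 neighbours that were up.

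All 10 members lie in the first part of their chromosome. Along each chromosome a position was sought, called the change point here, after which entries more often share a locus name with another entry. On chromosome 6 it lay at 10753631, where the share of named entries over 1 FPKM with a shared name was 42.5% after this position and 14.0% up to it. The members lie between 328 kb (LOC_Os02g10860) and 7016 kb (LOC_Os01g06640) before it, and each member's name occurs in 1 entry only. Most of the related genes listed for comparison here lie on the other side. Of 21 further loci listed as bZIP genes, 20 lie after the change point, and of 31 loci listed for ABA synthesis, breakdown, signalling and response, all 31 do. Of the 33 entries of the ABA loci, 14 are listed at 0 in every group. The part of the placing of names in these zeros was not tested.

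With that limit, 1 of the 9 further bZIP entries over 1 FPKM was up in WD3d and 3 were down, beside 20.2% and 30.1% of all entries, and their median log2 ratio was -0.21. OsbZIP52 (LOC_Os06g45140), known for a role in cold and drought responses, was at 15.4 FPKM in control, 34.5 FPKM in WD2d and 45.8 FPKM in WD3d, in an entry that lists a further locus beside it. OsbZIP23 (LOC_Os02g52780), an ABA-responsive relative of OsbZIP46, was at 1.25 FPKM in control, 0.704 FPKM in WD2d and 0.947 FPKM in WD3d. Both lie after the change point. Of the 3 entries that were down, 2 name the same locus, OsABF1 (LOC_Os01g64730), which is named here after its values were seen and lies after the change point too. The higher of these 2 entries was at 11.4 FPKM in control, 1.11 FPKM in WD2d and 0.362 FPKM in WD3d, and the other at 2.38, 0.138 and 0.313 FPKM in the same order. The only listed bZIP locus before the change point was OsbZIP16 (LOC_Os02g09830). The study names it, like OsbZIP46, among positive regulators of drought tolerance. It was at 2.56 FPKM in control, 0.199 FPKM in WD2d and 0.692 FPKM in WD3d. Of the ABA entries, 0 of 12 over 1 FPKM were up in WD3d and 4 were down, beside 20.2% and 30.1% of all entries, with a median log2 ratio of -0.26. The 4, also named after their values were seen, were OsABA8ox3, an enzyme of ABA breakdown, the SnRK2 kinases SAPK3 and SAPK10, and the protein phosphatase OsPP2C30. The other ABA entries over 1 FPKM stayed within 2-fold, with log2 ratios on both sides of 0. Among the SnRK2 kinases, SAPK4 had a log2 ratio of 0.39 in WD3d, and SAPK6, in an entry with a further locus, -0.27. All these ABA loci lie after the change point.

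The tissue was checked with 5 loci fixed as root markers and 5 as leaf markers. The root entries summed to 928 FPKM in control, 15.8 FPKM in WD2d and 11.7 FPKM in WD3d, and 3 of their 6 entries were over 1 FPKM. The difference was that of LOC_Os03g01700, at 921 FPKM in control, 7.18 FPKM in WD2d and 1.85 FPKM in WD3d. The other 2, both naming LOC_Os02g44310, were not lower under water deficiency: one was at 6.92 FPKM in control, 8.29 FPKM in WD2d and 8.83 FPKM in WD3d, and the other at 0.311, 0.319 and 1.03 FPKM in the same order. LOC_Os02g02170 and LOC_Os02g02190 were at 0.0793 and 0.0815 FPKM in control and are listed at 0 in WD2d and WD3d. LOC_Os02g51110 is listed at 0 in every group. These root loci were near or at 0 in watered roots too, so they do not mark the tissue in these values. The leaf entries summed to 3.99 FPKM in control, 16.5 FPKM in WD2d and 18.5 FPKM in WD3d, with 2 of 5 entries over 1 FPKM and LOC_Os12g17600 at 0 in every group. Most of this difference was that of LOC_Os02g10390, at 0.0687 FPKM in control, 10.2 FPKM in WD2d and 8.43 FPKM in WD3d. LOC_Os09g17740 was at 3.91 FPKM in control, 6.29 FPKM in WD2d and 9.96 FPKM in WD3d, and the remaining leaf entries were under 0.1 FPKM in every group. Of the 10 marker loci, 4 lie after the change point. The part of these markers in the members' differences was not tested. In these bulk roots, fewer cells of a type and less RNA per cell cannot be told apart.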

How the data were processed

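Root RNA-Seq was compared among control, WD2d and WD3d plants, 2 libraries each. The authors trimmed the paired-end reads with Trim Galore and cutadapt, aligned the rest to IRGSP 1.0 with TopHat and, on RGAP gene models, ran Cuffdiff, which made the deposited FPKM values, 1 per group and entry. Tool versions, library scaling and whether "c1" in the tables pools both control libraries are nowhere stated in the sources used here. It was read as the control group. The paper's figures use C1 for the control that corresponds to 1 d of water deficiency. Whether "c1" has that meaning is not stated, so the sampling day of the control is unknown. The tables also hold the authors' log2 fold changes, test statistics, p-values and q-values, which were not used. Depth per library is unknown.

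Log2 ratios were computed from FPKM without a pseudocount for entries over 1 FPKM in 1 of the 2 groups, with a 2-fold limit and no test. Starts were raised by 1 base to count from 1. A change point is the best split of a chromosome's named entries over 1 FPKM by name sharing, with at least 30 entries on each side and only a higher share after it allowed. Named are all members and, of the further bZIP and ABA lists, those over 1 FPKM before the change point plus OsbZIP23 and OsbZIP52. OsABF1, the ABA loci given by symbol and the neighbours were named in addition, after their values were seen. Members and lists were chosen with earlier results of these data known, and the lists from general knowledge of rice loci. The limit was run on planted differences past it and without noise, so its outcome was fixed in advance. The change point search was run on simulated splits away from both ends, so splits near an end were not tested. Alternatives were 2 pseudocounts, 2 other filters, 2 scalings, entries summed by locus and a 3-fold limit. Python 3.11.15, pandas 2.3.3, numpy 2.4.6 and matplotlib 3.10.9 were used. No sequence is shown, since no reference table used here pairs these locus names with one.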

Additional observations from a re-analysis of the deposited data

How the results depend on the processing

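Under the 2 pseudocounts and the 2 scalings, the alternatives that can move a member's ratio, 74 of 76 ratios stayed on their side of 2-fold and 75 of 76 kept their sign. Of 60 counts of members recomputed under all alternatives, 47 were equal to the reported one and 55 were within 1.5 times of it. Part of this was fixed in advance. Summing by locus could not move a count, since each member has 1 entry. Counts of 0 in WD3d against WD2d could not change under a stricter limit, a stricter filter or fewer members. LOC_Os01g07880 in WD2d crossed the limit, at 0.90 with 1 added to each FPKM and at 0.97 with FPKM rescaled without the 3 entries under 100 bp, which hold 76.6% of the FPKM sum in control, 73.9% in WD2d and 69.0% in WD3d. This rescaling moved the median log2 ratio of all entries to -0.13 in WD2d and -0.24 in WD3d. The log2 ratio of LOC_Os02g07840 in WD3d turned to 0.01 when centred on the median. With FPKM over 4 in both groups, 1 member was up in WD2d and 1 in WD3d, because OsbZIP46 and, in WD2d, LOC_Os01g07880 are under 4 FPKM in control and drop out. With no filter, 5 members were down in WD3d against control and 2 in WD3d against WD2d, by the addition of loci under 1 FPKM. Chosen after seeing the data, leaving out LOC_Os01g06640 gave 1 member up in WD3d, and leaving out the 2 members with shared coordinates gave 2 up and 3 down at both times. No paired analysis was possible because the deposited values are pooled. Leaving out a replicate and a replicate block were not run for the same reason. The unknown depth limits every value near or under 1 FPKM.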

Other observations

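Chosen after their values were seen, 4 further loci have descriptions in the study's annotation that bear on the members. LOC_Os02g10140, described as a protein with a bZIP domain and not among the 10, was at 58.0 FPKM in control, 5.38 FPKM in WD2d and 4.99 FPKM in WD3d, a log2 ratio of -3.54 in WD3d. Its entry lists 2 loci and lies before the change point of chromosome 2. It was lower than LOC_Os05g03860 in control, with the larger ratio downward.

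The other 3 carry the description of a transcript with a conserved peptide uORF that LOC_Os05g03860 and LOC_Os02g03960 have. LOC_Os11g02300 was at 20.2 FPKM in control, 8.54 FPKM in WD2d and 9.51 FPKM in WD3d. LOC_Os12g06330 was at 19.1 FPKM in control, 46.1 FPKM in WD2d and 40.5 FPKM in WD3d, and LOC_Os01g50030, after the change point of chromosome 1, was at 26.2 FPKM in control, 186 FPKM in WD2d and 262 FPKM in WD3d. Loci with this description thus had ratios in both directions. The study lists them because they passed its criteria in these data, so they are no sample of all such transcripts.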
